A study of Danio rerio with 8 samples.

Results

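Frizzled receptors and planar polarity genes were followed by symbol: every probe set annotated to fzd9b, fzd7a, fzd7b, fzd8a, fzd8b, prickle1a, prickle1b, vangl2 or wnt5b was taken. These 9 genes had 12 of the 12477 probe sets in the deposited data, and 9 of the 12, from 6 genes, were bright enough to test among 7375 in all. The other 3 probe sets, the only ones of prickle1a, vangl2 and wnt5b, did not pass the filter and are given as values. Signal intensities were measured on 8 Affymetrix arrays in zebrafish, each made from the total RNA of 120 pooled whole embryos, copied into biotin-labelled cRNA.

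Wild-type embryos (WT) came from AB x TÜB strain crosses, and MZspg embryos carried the m793 allele of spg, and so had no functional Pou5f3, a transcription factor, from the egg or from their own genome. Each genotype has 2 arrays, stated as biological duplicates, from 4.7 hours of development (30% epiboly) and 2 from 7 hours (60% epiboly). During epiboly the blastoderm spreads over the yolk, and the percentage is the part of the yolk it covers. The embryos had been timed from in vitro fertilisation or, in natural crosses, from the 4-cell stage, and the labels do not say which sample took which route. Beyond the allele, the labels give no genetic background for MZspg, so genotype and strain background cannot be told apart. In RNA of whole embryos, fewer cells of a type and less RNA per cell cannot be told apart either.

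Frizzleds are membrane receptors that bind Wnt ligands through a cysteine-rich extracellular domain. They pass the signal either to β-catenin, which acts on transcription, or to a branch without β-catenin that includes planar polarity. In that branch Frizzled with Dishevelled gathers on one side of a cell, and Vangl with Prickle on the other. In the zebrafish gastrula this branch is known for convergence and extension, the movements that narrow and lengthen the body axis, and wnt5b and vangl2 mutants (pipetail and trilobite) are known for defects in them.

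The pou5f3 transcript, the check of the genotype label, had signals of 2850 and 3166 in WT and 1292 and 1327 in MZspg at 30% epiboly, and of 2957 and 2214 against 1268 and 890.8 at 60% epiboly. Its log2 fold change was -1.19 (limma, adjusted p = 0.0223) and -1.26 (adjusted p = 0.0108). The first call was lost without any 1 of the 4 arrays of its stage, at values of -1.27 to -1.12. It was also lost with no filter (limma, adjusted p = 0.105) and with no intensity trend (0.129). The second was lost without the first WT array (-1.05), the second MZspg array (-1.01) or both high spike-in arrays described below (-1.22). It was also lost with no intensity trend (limma, adjusted p = 0.0513) and in a fit of the compared groups alone (0.0961). Replicates correlated at 0.921 to 0.952 across probe sets, and empty cells made up 14.98% to 22.42% of an array. Spike-in control signals averaged 641.2 and 805.2 (geometric mean) on the second arrays of WT and MZspg at 60% epiboly and 89.64 to 211.4 on the other 6, so values at that stage are also given within each replicate number. Probe sets are not compared in level with one another, since each has its own response.

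Among the members, fzd9b had the largest genotype difference. At 60% epiboly its probe sets averaged 137.5 ± 24.2 and 130.2 ± 18.9 in WT (SD, n = 2) and were at background in MZspg. The polarity gene prickle1b fell by 2.35 on the log2 scale in MZspg at 30% epiboly. At 60% epiboly its difference of -0.46 did not pass the test. The remaining Frizzleds passed no genotype test at either stage. At 30% epiboly 2 of the 9 tested member probe sets were called lower, against 1.27% of all tested probe sets called lower, and at 60% epiboly 2 of 9, both of fzd9b, against 2.24%. No member was called higher, where 0.407% and 2.28% of all tested probe sets were. Both fzd9b probe sets were bright enough to test only through their WT arrays. The members were taken with earlier results in view, so these counts of calls describe the genes and are not evidence about the family.

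**Figure D1:**
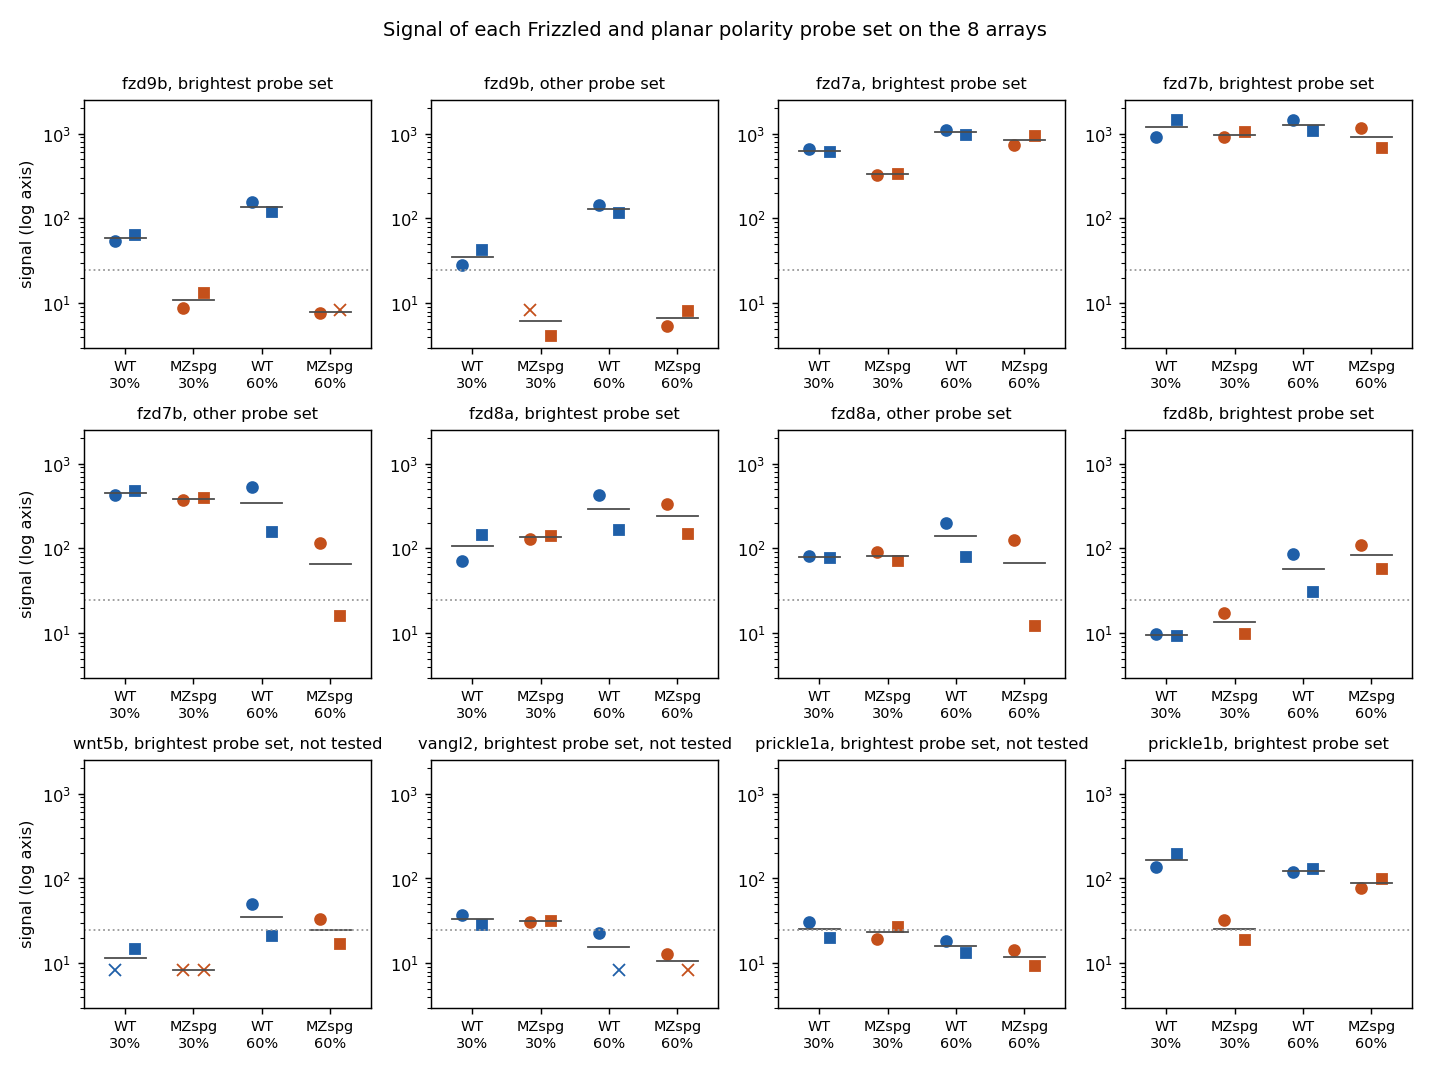
Signal of each member probe set on the 8 arrays, on a log axis, with WT in blue and MZspg in orange at 30% and 60% epiboly. Circles are replicate 1, squares replicate 2, crosses empty cells drawn at 8.345, horizontal lines group means and the dotted line the bound of 24.62, and the fzd9b values of MZspg lie under that bound at both stages while those of WT lie above it.

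The receptor fzd9b (NCBI gene ID 58023) is measured by a pair of probe sets. The brighter read 53.89 and 63.13 in WT and 8.815 and 13.22 in MZspg at 30% epiboly. Its 60% epiboly readings were 154.6 and 120.4 in WT, and 7.601 and an empty cell in MZspg. The groups did not overlap at either stage, and all MZspg values lay under 24.62, a bound below which a signal cannot be told from an empty cell (the 95th percentile of signals whose replicate cell was empty).

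The fitted log2 difference of this probe set was -1.76 at 30% epiboly (SE 0.344, 95% interval -2.51 to -1.01, limma, adjusted p = 0.0255). At 60% epiboly it was -3.10 (SE 0.344, interval -3.85 to -2.35, adjusted p = 0.000709). Against the bound, MZspg was at least 2.38-fold lower at 30% and at least 5.59-fold lower at 60% epiboly, and these are the readings that do not rest on the dim values. The fall at 60% epiboly passed when any 1 of the 8 arrays was left out, with values from -3.27 to -2.93. Within each replicate number it was -3.30 and -2.90. At 30% epiboly the difference ran from -1.92 to -1.60 when 1 of the 4 arrays of that stage was left out, and the call was lost each time (adjusted p up to 0.247).

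The dimmer fzd9b probe set read 28.56 and 42.01 in WT, an empty cell and 4.163 in MZspg at 30% epiboly. Later it read 143.6 and 116.9 in WT and 5.38 and 8.15 in MZspg. WT lay above MZspg on every array of both stages. The difference of -1.53 at 30% epiboly did not pass the test (adjusted p = 0.0596, and 0.0449 with an offset of 1), and that of -3.14 at 60% epiboly did (SE 0.357, adjusted p = 0.000827), at least 5.29-fold against the bound. Within the replicate numbers it was -3.41 and -2.88.

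The paralogous receptors fzd7a (gene ID 30369) and fzd7b (30412) act in gastrulation movements, and neither passed a genotype test. The fzd7a probe set read 656.8 and 605.1 in WT and 326.5 and 336.2 in MZspg at 30% epiboly, and 1106 and 972.4 against 730.3 and 930.1 at 60%. WT lay above MZspg at both stages, with replicates close together at the earlier one and nearly meeting at the later one. The log2 difference was -0.91 at 30% epiboly (SE 0.258, unadjusted p = 0.00438, adjusted p = 0.142, limma) and -0.33 at 60% (adjusted p = 0.483). The first passed the unadjusted test only. Of all tested probe sets 9.36% had an unadjusted p under 0.05, those called included. The second was -0.59 in replicate 1 and -0.06 in replicate 2.

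For fzd7b the brighter probe set read 901.8 and 1460 in WT and 902.5 and 1029 in MZspg at 30% epiboly, and 1426 and 1063 against 1158 and 679.9 at 60%. The genotypes overlapped at both stages, and the differences of -0.25 and -0.47 did not pass (95% interval of the latter -1.16 to 0.22). The other probe set gave 425.1 and 481.1 in WT and 376.4 and 391.8 in MZspg at 30% epiboly. The later values were 523.7 and 155 in WT and 116.8 and 16.07 in MZspg. MZspg lay below WT at both stages here, and at 60% epiboly the second array of each genotype was far below the first. The 60% difference was -2.40 with a wide interval (-3.86 to -0.93, adjusted p = 0.0655). Single arrays of that stage moved it widely. It was -1.23 without the second MZspg array (adjusted p = 0.38), -1.55 without the first WT array (0.357), -3.25 without the second WT array (0.0464) and -3.56 without the first MZspg array (0.00676). It passed with a term for the high spike-in arrays (0.00168), and within the replicate numbers it was -2.08 and -2.71, against -0.30 and -0.64 for the brighter probe set. The positions of the fzd7b probe sets in the transcript were not used here.

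The paralogous receptors fzd8a (gene ID 58073) and fzd8b (58072) gave no genotype call. The brighter fzd8a probe set read 70.38 and 144.9 in WT, 130 and 139.2 in MZspg at 30% epiboly, then 421.9 and 166 in WT and 334.5 and 147.7 in MZspg at 60%. The dimmer one read 80.62 and 76.77 in WT, 90.63 and 71.39 in MZspg, then 201 and 79.15 in WT and 124.1 and 12.2 in MZspg. In both the second array of 60% epiboly lay far under the first in either genotype, and the genotypes overlapped. The differences were 0.38 and 0.03 at 30% epiboly, and at 60% they were -0.24 (interval -1.37 to 0.88) and -1.36 (interval -2.87 to 0.16). Within the replicate numbers the latter pair were -0.33 and -0.16 for the brighter probe set and -0.66 and -2.06 for the dimmer. The name of the dimmer one carries the suffix Affymetrix uses where its probes may match more than 1 transcript.

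The fzd8b probe set read 9.836 and 9.325 in WT and 17.28 and 9.698 in MZspg at 30% epiboly, all under the bound. By 60% epiboly the readings were 85.25 and 30.55 in WT and 110.2 and 57.15 in MZspg. The genotypes overlapped at 60% epiboly, where the difference was 0.54 (interval -0.47 to 1.55, adjusted p = 0.525), or 0.34 and 0.74 within the replicate numbers.

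The ligand wnt5b (gene ID 30105), which in zebrafish acts chiefly without β-catenin, was at the edge of detection. Its probe set had an empty cell and 14.9 in WT and 2 empty cells in MZspg at 30% epiboly, then 49.69 and 20.73 in WT and 33.15 and 16.9 in MZspg at 60%. Its genotypes overlapped at 60% epiboly, and only the first array of each genotype there reached above the bound. The gene of the membrane protein Vangl2, vangl2 (gene ID 245949), read 37.49 and 28.31 in WT and 31.01 and 31.97 in MZspg at 30% epiboly, then 22.97 and an empty cell in WT and 12.93 and an empty cell in MZspg. Its signals were alike in both genotypes at 30% epiboly and under the bound on every array at 60%.

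Prickle proteins bind Vangl on its side of the cell. The probe set of prickle1b (gene ID 556148) read 138.3 and 191.9 in WT and 32.08 and 18.86 in MZspg at 30% epiboly, and 117.8 and 129.8 against 76.58 and 99.02 at 60%. WT stood above MZspg on every array, by far more at the earlier stage. The difference was -2.35 at 30% epiboly (SE 0.367, interval -3.15 to -1.54, adjusted p = 0.00788, limma), and 1 of the MZspg readings behind it, 18.86, lay under the bound. At 60% the difference was -0.46 (interval -1.27 to 0.34, adjusted p = 0.485), or -0.57 and -0.36 within the replicate numbers. Without 1 of the WT arrays at 30% the adjusted p was 0.057 and 0.138, and without the second MZspg array it was 0.0763, so the call rests on all of these. With no filter on dim probe sets it was 0.0517.

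Its paralogue prickle1a (gene ID 368249) read 30.59 and 19.88 in WT and 19.36 and 27.01 in MZspg at 30% epiboly, then 18.58 and 13.15 in WT and 14.25 and 9.238 in MZspg. These values lay close to the bound at 30% epiboly and under it at 60%, with overlapping genotypes.

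**Figure D2:**
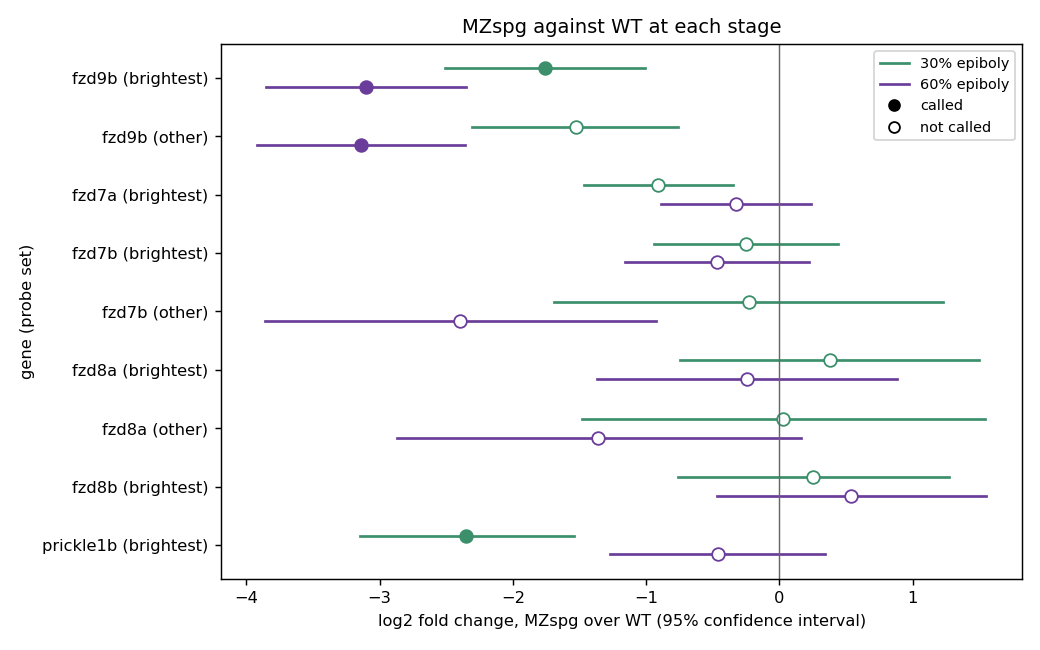
Log2 difference of MZspg from WT for each tested member probe set at 30% and 60% epiboly, with 95% intervals from limma, filled where the adjusted p is under 0.05. The fzd9b probe sets lie at -3.10 and -3.14 at 60% epiboly, prickle1b at -2.35 at 30% epiboly, and 6 of the 9 intervals at 60% epiboly include 0.

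Of the 9 tested member probe sets, 5 had WT and MZspg arrays that did not overlap and lay lower in MZspg at 30% epiboly, where 16.4% of all tested probe sets did. At 60% epiboly it was again 5 of 9, against 22.7%. These were the fzd9b pair, fzd7a, the dimmer fzd7b probe set and prickle1b at both stages. None lay wholly higher in MZspg, against 21.2% and 28.3% of all tested. The fzd9b pair passed the filter only through WT arrays, so these counts are no further support for its fall.

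The paralogue pairs were compared on the genotype difference averaged over the stages, on the brightest probe set of each gene and by an exact two-sided permutation of genotype within stage. With 2 arrays per group the smallest p this exact permutation can give is 0.0556, so it could not pass. The difference of fzd7a from fzd7b was -0.26 (exact p = 0.5), that of fzd8a from fzd8b was -0.33 (exact p = 0.389), and that of prickle1a from prickle1b was 1.23 (exact p = 0.111, adjusted over the 3 pairs 0.333). The prickle1a value rests on signals near or under the bound. The fzd7 difference turned to 0.22 when the probe sets of a gene were averaged.

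From 30% to 60% epiboly the Frizzleds took different courses. In WT fzd8b rose, as did fzd9b by its dimmer probe set. In MZspg fzd8b, fzd7a and prickle1b rose and the dimmer fzd7b probe set fell. Of the 9 tested member probe sets 2 were called higher in WT, against 5.6% of all tested, and 0 lower, against 8.14%. In MZspg 3 were called higher, against 13.9%, and 1 lower, against 18.8%. The fzd8b probe set passed the filter only through 60% arrays and the fzd9b pair only through WT arrays. The arrays of the 2 stages did not overlap and lay higher at 60% epiboly for 5 of 9 in WT (28% of all tested) and 4 of 9 in MZspg (29.8%), and lower for 1 of 9 in each (34.4% and 37.6%).

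**Figure D3:**
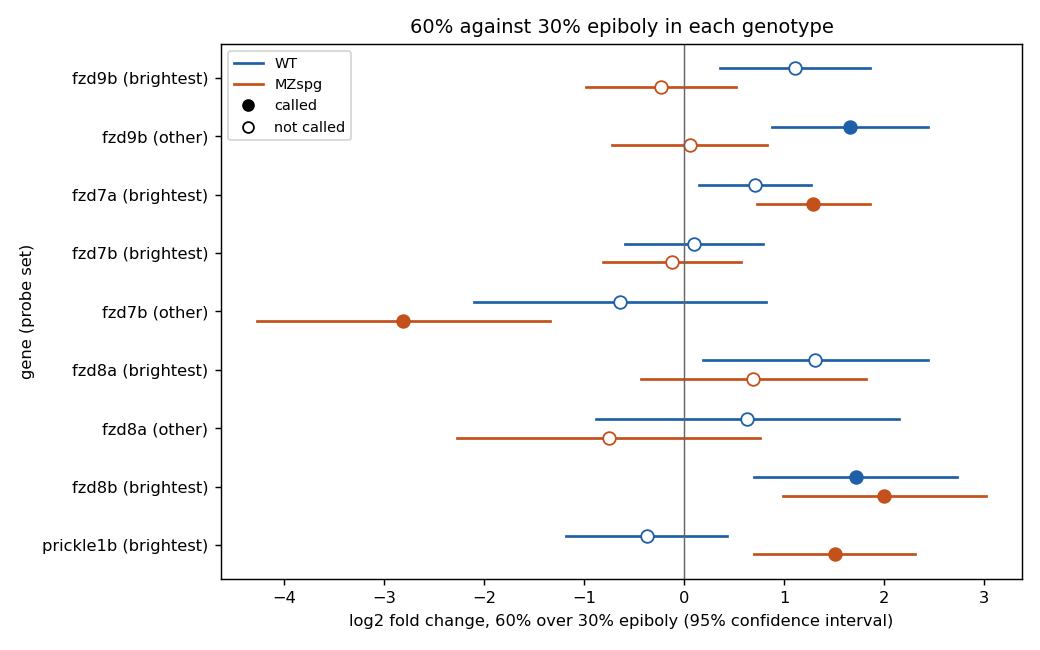
Log2 difference of 60% from 30% epiboly in WT and in MZspg for each tested member probe set, with 95% intervals from limma, filled where the adjusted p is under 0.05. The fzd8b values lie at 1.72 and 2.00, and prickle1b lies at -0.37 in WT and 1.51 in MZspg.

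For fzd8b the rise was 1.72 in WT (SE 0.464, adjusted p = 0.033) and 2.00 in MZspg (adjusted p = 0.00845). Against the bound these are at least 2.35-fold and at least 3.40-fold. The probe set passed the filter only through 60% arrays. With no filter the WT call was lost (limma, adjusted p = 0.0842), as it was with an offset of 50 (0.0555). In WT the call was lost without either 30% array (adjusted p 0.216 and 0.116) or the first 60% array (0.202), and in MZspg without the second 30% array (0.0767). Leaving out both arrays with high spike-in signals gave 2.34 in WT (adjusted p = 0.0356) and 2.43 in MZspg (0.0179).

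The dimmer fzd9b probe set rose by 1.66 in WT (SE 0.357, adjusted p = 0.0163), while the brighter gave 1.11 (adjusted p = 0.0525). The call of the dimmer one was lost without the first WT array of 30% or either WT array of 60% epiboly (adjusted p up to 0.179), and without both high spike-in arrays (1.80, adjusted p = 0.0611). In MZspg the probe sets gave 0.06 and -0.23, both at background signals. The difference between genotypes in this stage change was -1.61 and -1.34, with adjusted p of 0.495 and 0.523, so it did not pass.

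In MZspg fzd7a rose by 1.29 (SE 0.258, adjusted p = 0.00435), a change that passed with any 1 array left out but not with both high spike-in arrays left out (1.12, adjusted p = 0.0526). In WT its difference was 0.71 (adjusted p = 0.0858). The dimmer fzd7b probe set fell by 2.81 in MZspg (adjusted p = 0.00956), and the brighter stood at -0.12. In WT these probe sets stood at -0.64 and 0.10, and neither passed. That call was lost without the second MZspg array of 30% (adjusted p = 0.0583) or of 60% epiboly (0.0777), and the value was -1.64 without both high spike-in arrays.

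For prickle1b the stage difference was -0.37 in WT (adjusted p = 0.522) and 1.51 in MZspg (SE 0.367, adjusted p = 0.0106). The arrays of the stages did not overlap in either genotype and lay in opposite order, and the interaction was 1.88 (SE 0.52, unadjusted p = 0.00366, adjusted p = 0.44, limma). It did not pass, as no probe set did out of 7375, of which 638 (8.65%) had an unadjusted p under 0.05. The rise in MZspg was lost without the second MZspg array of 30% (adjusted p = 0.0952) or 60% epiboly (0.0691), and was 1.34 without both high spike-in arrays (0.102).

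The brighter fzd8a probe set had differences of 1.31 in WT (adjusted p = 0.106) and 0.69 in MZspg (0.319) between stages. With a term for the high spike-in arrays they were 1.92 (adjusted p = 0.024) and 1.30 (0.0447), so this call depended on that choice. The arrays with high spike-in signals were the second of both genotypes at 60% epiboly. Of the tested member probe sets, 5 of 9 read lower on the second array than on the first in both genotypes, where 40.2% of all tested probe sets did. Of all 12 member probe sets it was 8. That count holds vangl2 and prickle1a, whose 60% values lay under the bound or were empty and cannot be ordered. For the dim members wnt5b, vangl2 and prickle1a the stages are given as levels. For wnt5b all 30% readings lay under the bound, and the first 60% array of each genotype lay above it (49.69 in WT, 33.15 in MZspg). The second 60% arrays (20.73 and 16.9) lay under the bound, so they cannot be ordered against the 30% readings. For vangl2 the 30% readings of each genotype lay above the bound and the 60% readings under it. For prickle1a only the 30% readings of 30.59 in WT and 27.01 in MZspg lay above the bound. Its other readings lay under it and cannot be ordered by stage. Fitted with no filter, none of the comparisons of these dim members was called. The lowest adjusted p was 0.0619 (limma), for vangl2 between stages in MZspg. The part of those high spike-in arrays in the members' values was not tested further.

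Other genes of the pathway were taken as lists, which were chosen with earlier results of these data known. Genes counted as on the array are those with a probe set of their symbol alone in the deposited data. Medians over a list stand beside those over all tested probe sets, 0.05 and 0.01 for MZspg against WT at 30% and 60% epiboly. Of 24 Wnt ligand genes other than wnt5b, only wnt11 had a probe set with a single symbol, and it was empty on all arrays but 2 (4.538 and 3.55).

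Of 19 other Frizzleds and co-receptors 6 were on the array and 5 were tested, with none called for genotype at either stage (medians 0.41 and -0.25). The Frizzled fzd10 read an empty cell and 16.1 in WT, 39.94 and 8.311 in MZspg at 30% epiboly, then 68.57 and 56.29 in WT and 158.7 and 283.8 in MZspg. Its genotype difference at 60% epiboly was 1.64 (adjusted p = 0.0825). Between stages it rose by 2.93 in MZspg, in all 8 fits with 1 array left out, and by 1.77 in WT (at least 2.54-fold against the bound), a call lost without any 1 of the 4 WT arrays. Its probe set passed the filter only through 60% arrays, and fzd10 was the only one of the list called in WT. In MZspg the other call was the co-receptor ror2, which fell by 2.06 (-1.43 without both high spike-in arrays, adjusted p = 0.0624), reading 346.4 and 331.1 at 30% and 119.7 and 45.21 at 60% epiboly.

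Of 32 other planar polarity core and effector genes 14 were on the array and 9 tested. The cadherin celsr1a read 9.473 and 18.29 in WT and 7.914 and an empty cell in MZspg at 30% epiboly, then 75.18 and 42.25 in WT and 70.63 and 69.81 in MZspg. All its 30% readings lay under the bound and all its 60% readings above it, at least 2.39-fold higher in WT (log2 difference 1.55) and 2.85-fold in MZspg (2.21). In MZspg the Dishevelled gene dvl3a fell by 1.38, reading 228.5 and 248 at 30% and 163.3 and 43.45 at 60% epiboly. Its difference was -0.52 without both high spike-in arrays. With a term for those arrays it was -0.85 and was not called (limma, adjusted p = 0.16). The WT call of celsr1a was lost without 3 single arrays and the call of dvl3a without 7. The celsr1a call in MZspg passed with any 1 array left out. The celsr1a probe set passed the filter only through 60% arrays.

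Of 14 secreted Wnt inhibitors and Frizzled-related factors 7 were on the array and 4 tested. There was no genotype call at 30% epiboly (median 0.27) and 1, szl, at 60% (median -0.79). Whether szl acts on Wnt signals was not tested. At 60% epiboly this secreted Frizzled-related factor of the ventral side read 209.3 and 244.6 in WT and 83.32 and 84.12 in MZspg. It was lower by 1.34 on the log2 scale (limma, adjusted p = 0.0415), and the call was lost in every fit with 1 array left out. At 30% epiboly szl lay the other way, with 35.93 and 35.72 in WT and 76.3 and 69.17 in MZspg. That difference of 0.87 was not called (limma, adjusted p = 0.375). Between stages szl rose by 2.39 in WT, a call lost without its first 30% array. Of the same list dkk3b rose by 1.31 in MZspg, a call that passed in 3 of 8 fits with 1 array left out. Whether dkk3b acts on Wnt signals was not tested either. The dkk3b probe set passed the filter only through the MZspg arrays of 60% epiboly.

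Of 29 genes of the β-catenin branch and its responses 20 were on the array and 19 tested, with no call at 30% epiboly (median 0.01) and 1 at 60% (median -0.07). That was csnk1e, a casein kinase, read at 14.33 and 11.96 in WT, under the bound, and 52.26 and 52.23 in MZspg. It was at least 2.12-fold higher against the bound (log2 difference 1.47, adjusted p = 0.0354), and it passed in 1 of 8 fits with 1 array left out. Its probe set passed the filter only through the MZspg arrays of 60% epiboly. Between stages 2 of the 19 were called higher in WT, against 5.6% of all tested probe sets, and 1 lower, against 8.14%. In MZspg 6 of the 19 were called higher, against 13.9%, and 1 lower, against 18.8%. Of these cdx4 and sp5l are known responders to Wnt signals. Others of the list, axin2, lef1, tbxta and tbx16, were not called between stages in either genotype. In MZspg cdx4 lay under the bound at 30% epiboly and was at least 45.1-fold higher at 60% (log2 difference 5.56), and sp5l rose by 4.77. Also in MZspg sp5a rose by 1.44 (limma, adjusted p = 0.0278, and 0.0531 with a term for the high spike-in arrays). The sp5l difference in WT was 2.53 and did not pass (limma, adjusted p = 0.0529). In WT cdx4 rose by 4.08 (a call lost without its first 30% array, adjusted p = 0.113) and sp5a by 1.5, while tle3a was at least 2.68-fold lower against the bound (log2 difference -1.68). The calls of sp5a and tle3a in WT were lost without any 1 of the 4 WT arrays. The tle3a probe set passed the filter only through 30% arrays.

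**Figure D4:**
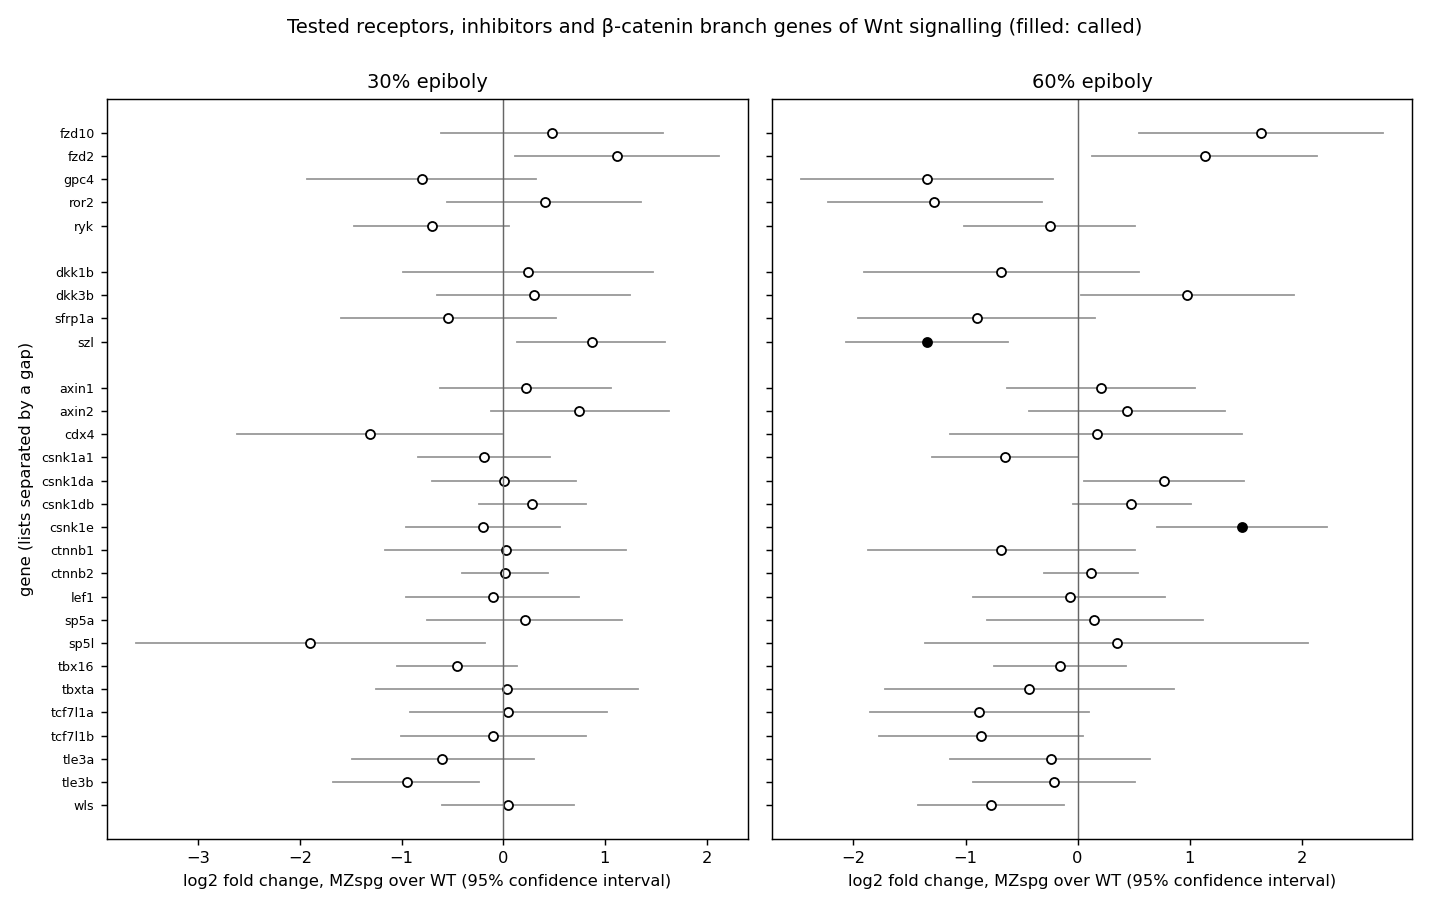
Log2 differences of MZspg from WT at 30% and 60% epiboly for the tested genes of 3 pathway lists, with 95% intervals from limma, filled where the adjusted p is under 0.05. The lists are the receptors, the secreted inhibitors with Frizzled-related factors, and the β-catenin branch. At 60% epiboly csnk1e lies at 1.47 on the higher side and szl at -1.34 on the lower.

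Markers of some cell populations moved with genotype, and those of others did not. The summed signal of 7 blastoderm ectoderm markers at 30% epiboly was 1444 and 1529 in MZspg against 2201 and 2964 in WT, and at 60% epiboly 2058 and 2005 against 3960 and 3822, where foxi1, gata2a, sox2 and tfap2a were called lower. At 60% epiboly the 7 yolk syncytial layer markers summed to 1057 and 2411 in MZspg against 727.5 and 731.7 in WT, where apobb.1 was called higher. Of the MZspg sums apoa1a alone made up 483.7 and 1225. The differences of 2 of the 7 were negative, and gata6 overlapped (292.3 and 435.1 in MZspg, 342.7 and 417.3 in WT). The enveloping layer markers summed to 6447 and 8486 in WT and 6306 and 2798 in MZspg at 30% epiboly, where krt5 (-3.72) and anxa1a (-2.83) were called lower, and to 12860 and 10650 against 7318 and 8558 at 60%, where cldnf (2.45) was called higher. The germ plasm markers at 60% epiboly summed to 581.7 and 414.6 in MZspg against 991.4 and 1098 in WT, with nanos3 (-1.52) called lower. At 30% epiboly the sums overlapped for the yolk syncytial layer (344.4 and 387.5 in MZspg, 348.7 and 294.6 in WT). So did those of the germ plasm (1188 and 1386 in MZspg, 1350 and 1416 in WT). The endoderm sums overlapped at both stages. Those of the dorsal organizer overlapped at 30% epiboly and were 1769 and 1436 in MZspg against 2132 and 1864 in WT at 60%. Neither list had a genotype call. Of the enveloping layer markers cldne lay under the bound on all 8 arrays, as did the endoderm marker sox17. Of the markers called, foxi1 and sox2 passed the filter only through WT arrays, and cldnf and apobb.1 only through MZspg arrays. The part of these cell populations in the values of fzd9b and prickle1b was not tested.

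For each member the genes with the most alike course over the 8 arrays were found by Pearson's r of log2 values, given as a description over 8 arrays that share groups. For fzd9b these were si:dkey-27i16.2 (r = 0.977) and zgc:194207 (0.97), and the most opposite was ypel3 (-0.974). On every MZspg array si:dkey-27i16.2 was empty, and fzd9b and zgc:194207 were empty or under the bound. Over those arrays the likeness of these genes to fzd9b rests on filled or background values. For prickle1b the most alike genes were sox11a (0.973) and klf17 (0.948), with copz1 at -0.956. For fzd7a they were tle3b (0.987) and si:ch211-98n17.5 (0.98), with prdx1 at -0.98.

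**Figure D5:**
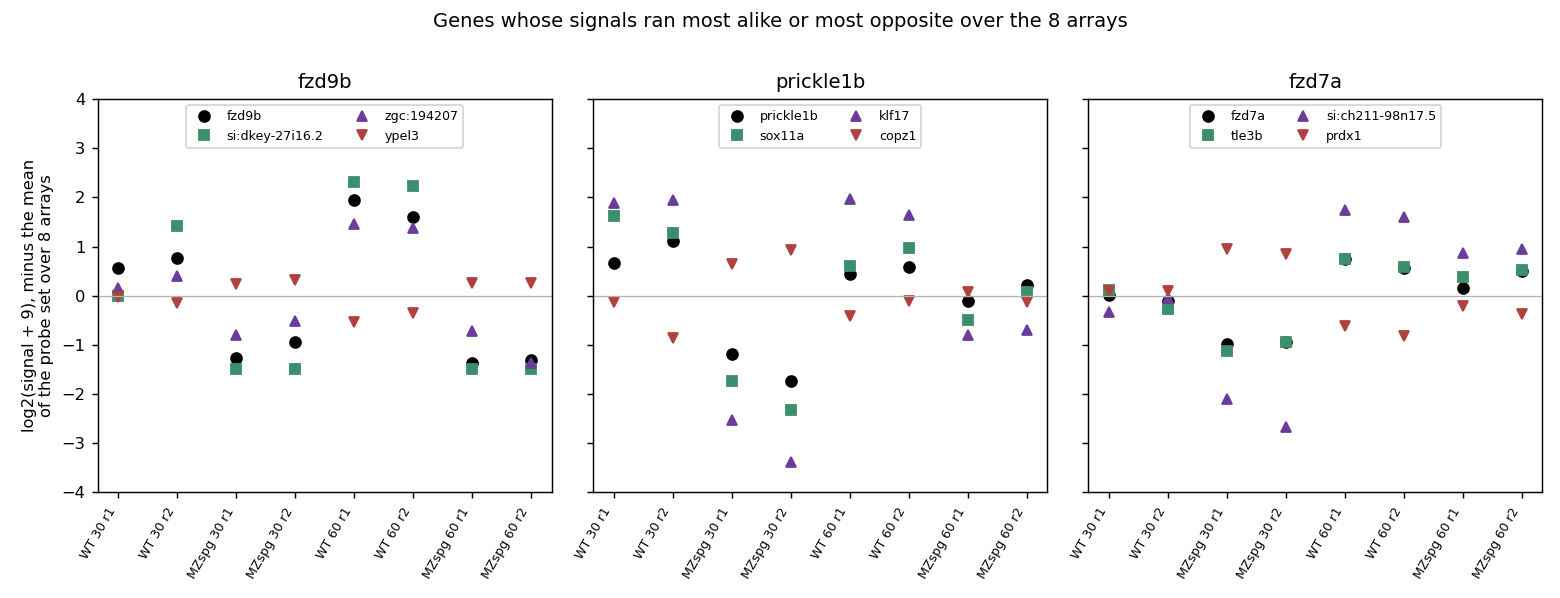
Log2(signal + 9) minus the probe set's mean over 8 arrays for fzd9b, prickle1b and fzd7a and for the 2 most alike and the most opposite genes of each. The alike genes follow the member largely in their group levels, and the opposite gene runs largely the other way. Arrays within a group can move apart, as in WT at 30% epiboly for prickle1b (138.3 and 191.9) and sox11a (888.2 and 695.6).

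For fzd7b the most alike genes were sap30bp (0.953) and tax1bp3 (0.948), for fzd8a ube2na (0.957) and wtap (0.956), and for fzd8b ajuba (0.985) and frmd8 (0.978). Among the members themselves fzd8a and fzd8b ran most alike (r = 0.83), and fzd9b and fzd8b gave -0.04. In both genotypes fzd7b, fzd8a, fzd8b and the genes alike to them read lower on the second 60% array than on the first. Those second arrays are the ones with high spike-in signals. For sap30bp and wtap the groups overlapped in every comparison. The part of these arrays in the values of r was not tested.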

How the data were processed

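Affymetrix signal intensities, linear values per probe set, were deposited by the authors as 1 table with 1 column per array. The submitters' processing notes name MAS5. Their genotype comparison used Genedata Expressionist Analyst, per the design text. The deposited intensity columns have the same quantiles over their filled cells, and the step that made them so is not given in the sources used here. Gene symbols came from the platform annotation.

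Here, signals were used as log2(value + 9), which understates the change of dim genes. Cells left empty (1.222% of those tested) were set to 8.345, the 10th percentile, and probe sets were tested when 2 of 8 arrays reached 41.03, the 40th percentile. limma 3.58.1 in R 4.3.3 (lmFit, eBayes with an intensity trend) fitted 1 mean per group over all 8 arrays, with p-values two-sided and adjusted by the Benjamini-Hochberg method over 7375 probe sets. A probe set was called at an adjusted p under 0.05. "At least" folds are against 24.62. The p-values measure the spread between arrays of pooled embryos, and the number of arrays limits their precision. The script was tested on simulated data.

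Some tested genes of the planar polarity list, called ones among them, are not reported here, so no counts of calls and no medians are given for that list. The members, lists and tests were chosen with earlier results of these data known. All members are named, and other genes follow a rule: up to 4 of the smallest adjusted p per list, called genes where 6 or fewer (except those not reported), and the 2 most alike and 1 most opposite course per member. Empty cells, which the design had not foreseen, and 3 added alternatives were handled after seeing the data.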

Additional observations from a re-analysis of the deposited data

Results flagged for a closer look

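The stage change of prickle1b went opposite ways in the genotypes: it was -0.37 in WT and 1.51 in MZspg, with each WT array of 60% epiboly below both of 30% and each MZspg array above both. The difference of the changes was 1.88 (limma interaction, unadjusted p = 0.00366, adjusted p = 0.44), which did not pass the threshold. Among the members only prickle1b had stages lying apart in opposite orders, and how many of all probe sets did was not counted. Signs alone also differed for the dimmer fzd8a probe set (0.63 in WT, -0.75 in MZspg). They differed too for the brighter ones of fzd9b (1.11 and -0.23) and fzd7b (0.10 and -0.12).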

How the results depend on the processing

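Over 963 alternative values of the members' differences, 885 kept their direction and their side of the threshold, 27 lost a call, 23 gained one, 28 moved and 0 reversed. Those that moved lost or changed their sign without a call in either fit. For fzd8b at 60% epiboly 0.54 became -0.09 without the second WT array, so 0 reversed does not mean that every sign held. Of the members counted as called by their brightest probe set, 2 were called at 30% epiboly, 1 at 60%, and 1 in WT and 3 in MZspg between stages. At 30% epiboly the count was 1 with an offset of 50, with a stricter filter, with complete probe sets only and with a fit of the compared groups alone, and 0 with no filter. At 60% epiboly it was 0 with the stricter filter and with complete probe sets only. By construction these settings leave fzd9b out, at 30% epiboly as well. In WT it was 0 with no filter and with the stricter filter, and the stricter filter by construction leaves fzd8b out. It was 2 in WT with centring, quantile normalisation, no trend, the compared groups alone, a spike-in term or averaged probe sets. In MZspg it was 1 without both high spike-in arrays, an alternative chosen after seeing the data, and 4 with a spike-in term or averaged probe sets. With 1 array left out the counts ran from 0 to 2 at 30% epiboly, stayed at 1 at 60%, and ran from 0 to 1 in WT and from 1 to 3 in MZspg. The cause of these shifts was not tested.

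The difference of fzd7a from fzd7b was 0.22 with averaged probe sets and ran from -0.54 to 0.02 with 1 array left out. Over all tested probe sets, calls ran from 22 (without the second WT array of 30%) to 155 at 30% epiboly, against 124. At 60% they ran from 32 (without both high spike-in arrays) to 757 (without the first MZspg array of 60%), against 333. In WT they ran from 0 (without the first WT array of 30%) to 1275, against 1013, and in MZspg from 688 (without both high spike-in arrays) to 2516, against 2405. The interaction gave 0 to 54 calls, the most without the first MZspg array of 60%. The largest shift of the median of all probe sets was 0.108, in WT.

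Replicate numbers are shared by label only, and deviations of same-numbered arrays correlated at -0.143 at 30% and 0.078 at 60% epiboly. With the replicate number as a block within stage, members called stayed at 2 and 1 for genotype (112 and 420 calls in all), and the interaction at 0, and with a block across stages they stayed at 1 in WT and 3 in MZspg. Under the within-stage block the dimmer fzd7b probe set at 60% epiboly passed (-2.40, adjusted p = 0.00511). The crossed pairing, chosen after seeing the data, gave 2 and 1 (155 and 618 in all). Signals under the bound of 24.62 limit what can be said of prickle1a, vangl2, wnt5b, of fzd9b in MZspg and of fzd8b at 30% epiboly, and single readings under it enter prickle1b, fzd7b and fzd8a.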
